A study of Mus musculus with 6 samples.

Results

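Fatty acid oxidation, ketone body metabolism and the targets of the nuclear receptor PPAR-alpha were followed through 30 genes, chosen by name from the deposited gene table. All 30 were present among its 46078 genes, and 28 passed the filter on low counts. The libraries are poly(A) RNA-seq of epithelial cells sorted as EpCam-positive and CD45-negative from the proximal small intestine of untreated C57BL/6JRj mice. The young group had 3 mice aged 2 to 3 months and the aged group 3 mice aged 20 to 22 months, and the 6 libraries were taken as 1 per mouse. The labels give neither sex nor batch, and p-values set the age difference against the spread between these mice. The sort keeps all epithelial lineages together, so fewer cells of a type and less RNA per cell cannot be told apart in these values.

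Long-chain fatty acids enter mitochondria as carnitine esters and are then shortened in cycles of dehydrogenation, hydration, a second dehydrogenation and thiolysis. Peroxisomes run a parallel pathway for very long chains and for products of omega-oxidation, and acetyl-CoA from either can be turned into ketone bodies. PPAR-alpha, encoded by Ppara, binds fatty acids and pairs with RXR on direct repeats of a hexamer, and many enzymes of these pathways are among its targets. In the small intestine it is present in absorptive cells and responds to dietary fat and fasting.

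Total counts ran from 41479573 to 58989166 per library, and the 30 genes held between 0.361 and 0.463% of them. The sorted population was checked against markers. Epcam, the sorting antigen, measured 1656 ± 18.3 CPM (counts scaled to library size with TMM factors) in young and 1510 ± 11.3 CPM in aged mice (SD, n = 3 each; adjusted p = 0.653), and all aged libraries lay below all young ones. The summed level of 13 leukocyte markers lay between 3.80 and 5.16 CPM in young and between 3.84 and 3.94 CPM in aged libraries, with S100a8 and Cpa3 at 0. The 10 fibroblast, muscle and endothelial markers summed to at most 1.87 CPM, with Cdh5 at 0. Of the hepatocyte and pancreatic markers, Prss1, Cpa1 and Amy2a1 were at 0, and the sum lay between 31.3 and 52.2 CPM. Among adipocyte markers Lep and Cfd were at 0 and Adipoq at no more than 0.0676 CPM, whereas Lipe, a lipase that epithelium also expresses, made up nearly all of a sum between 30.6 and 42.8 CPM. Markers of absorptive enterocytes summed to 8686, 6910 and 6803 CPM in young and to 7371, 5350 and 7391 CPM in aged libraries, lowest in aged replicate 2.

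No member passed the test for an age difference. By edgeR's quasi-likelihood test, with p adjusted over 14923 genes and a threshold of 0.05, 0 of 28 members were called, where 1.41% of all genes were. Of the members 0 were higher (0.623% of all genes) and 0 lower (0.784%) in aged mice. DESeq2 and limma-voom called 0 members too. At an unadjusted p below 0.05, 2 members were lower in aged mice, Angptl4 and Acaa1b (5.33% of all genes), and 0 were higher (3.9%). In no member did all 3 aged libraries lie below all 3 young libraries (7.49% of all genes) or above them (6.3%).

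The log2 fold changes of aged over young nevertheless lay mostly on one side of 0. They were below 0 in 23 of the 28 members (82.1%), against 48.2% of all genes. In lists described below, the share was 85% for nuclear oxidative phosphorylation genes, 76% for other mitochondrial oxidation genes and 18.2% for fatty acid synthesis. The members' median was -0.12 against 0.01 for all genes. The median depended on single mice. Leaving out aged replicate 2 or young replicate 1 gave -0.06, leaving out aged replicate 3 gave -0.20, and leaving out young replicate 2 gave -0.22. A fit that added 1 surrogate variable gave 0.03. The median standard error of the log2 fold change was 0.13 for the members and 0.12 for all genes. In 26 members (92.9%) the 95% intervals excluded a 2-fold change in either direction, against 81.5% of all genes. In 20 of the 28 (71.4%) they excluded a 1.5-fold change (65.05% of all genes).

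**Figure D1:**
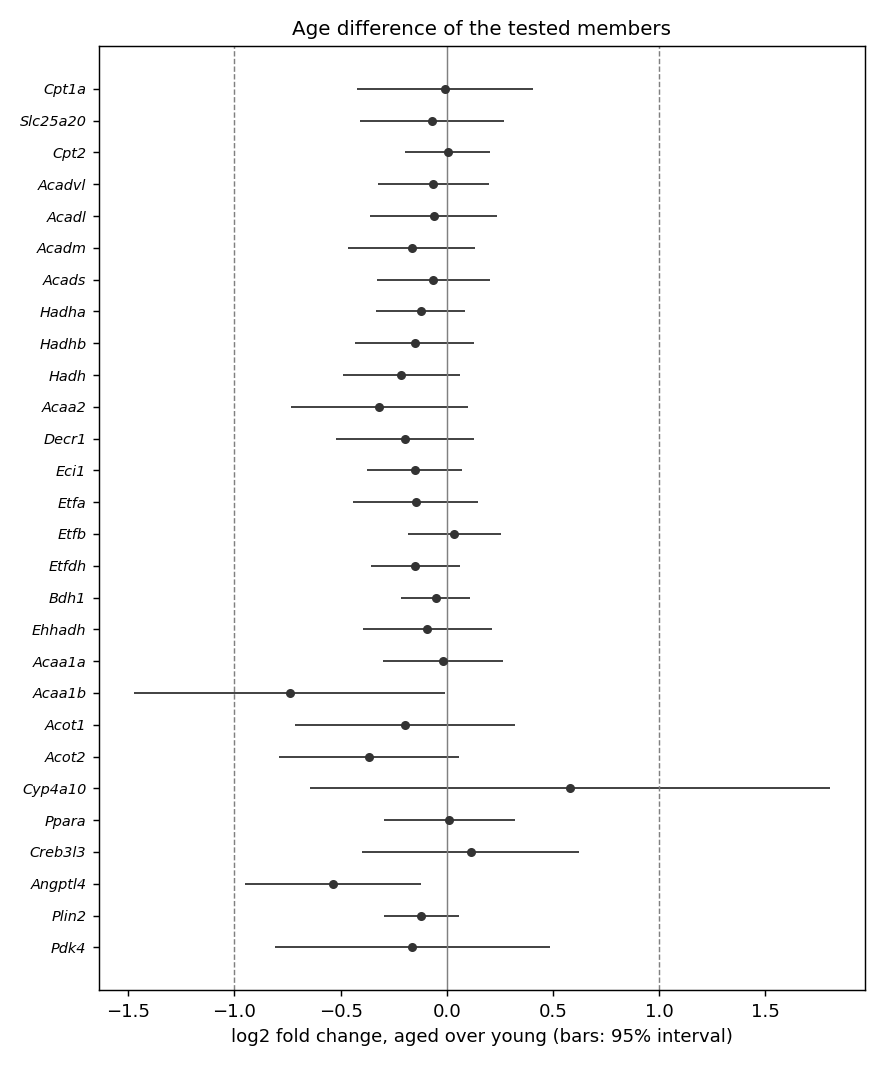
Log2 fold change of aged over young for each of the 28 tested members (points) with its 95% interval (bars), from the edgeR fit; dashed lines mark a 2-fold change. Intervals of 26 members lie inside the dashed lines, and only those of Acaa1b and Angptl4 exclude 0.

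Mice of the same age differed from one another. In 20 of 28 members the difference between the age means was smaller than the pooled SD of the 3 mice per group, as in 65.9% of all genes. Age accounted for a median of 13.4% of the variance of a member's log2 CPM, beside 15.2% over all genes. Set against each gene's own geometric mean, the members stood at a median log2 value of 0.17, -0.16 and 0.17 in young replicates 1, 2 and 3 and at -0.11, -0.22 and 0.14 in the aged ones. Aged replicate 2 held the lowest value of 16 members and young replicate 2 that of 10. Young replicates 1 and 3 held the highest value of 9 members each and aged replicate 3 that of 7. Together these 2 mice, 1 of each age, held the lowest value of 26 of the 28 members. Replicate numbers follow the order of the records, and the labels do not say whether mice were paired. Counts of mitochondrially encoded genes made up 3.69, 2.07 and 1.48% of the young and 2.88, 2.04 and 1.54% of the aged libraries, and their part in the members' values was not tested.

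**Figure D2:**
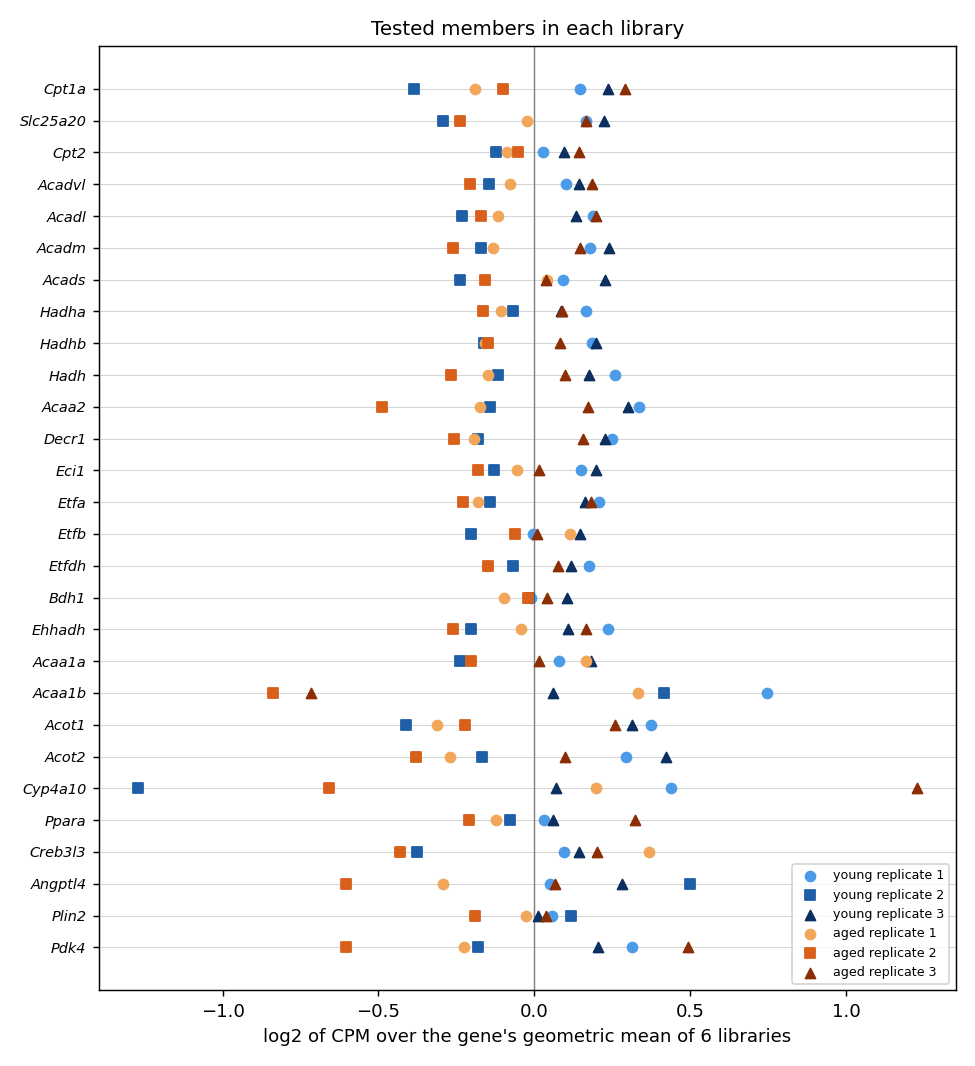
Level of each tested member in each of the 6 libraries, as log2 of CPM over that gene's geometric mean; blue symbols are young and orange symbols aged mice. Young replicate 2 and aged replicate 2 (squares) lie left of 0 in most rows, and young and aged symbols overlap in every row.

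Compared per kilobase of annotated exon, the most abundant members were enzymes of the mitochondrial pathway. Acaa2, which cleaves off acetyl-CoA, led at 187 CPM per kilobase, followed by Etfb (172), Acadvl (112), Etfa (97.4), Hadh (97.0) and Bdh1 (93.3). On this scale Acaa2 and Etfb were not separated, since their library ranges overlapped in both age groups, and neither were Etfa and Hadh. The length counts the exons of all annotated transcripts, coding or not, and the order holds for this length only. Hadh had 4973 distinct stretches of 50 bases in all its transcripts and 1740 in its coding ones. Acaa2 had 1505 in both. Ppara itself stood at 8.43 CPM per kilobase. The lowest levels belonged to the omega-hydroxylases, with Cyp4a10 at 0.626 CPM per kilobase. In counts, 18 of the 28 members exceeded a mean of 100 CPM.

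**Figure D3:**
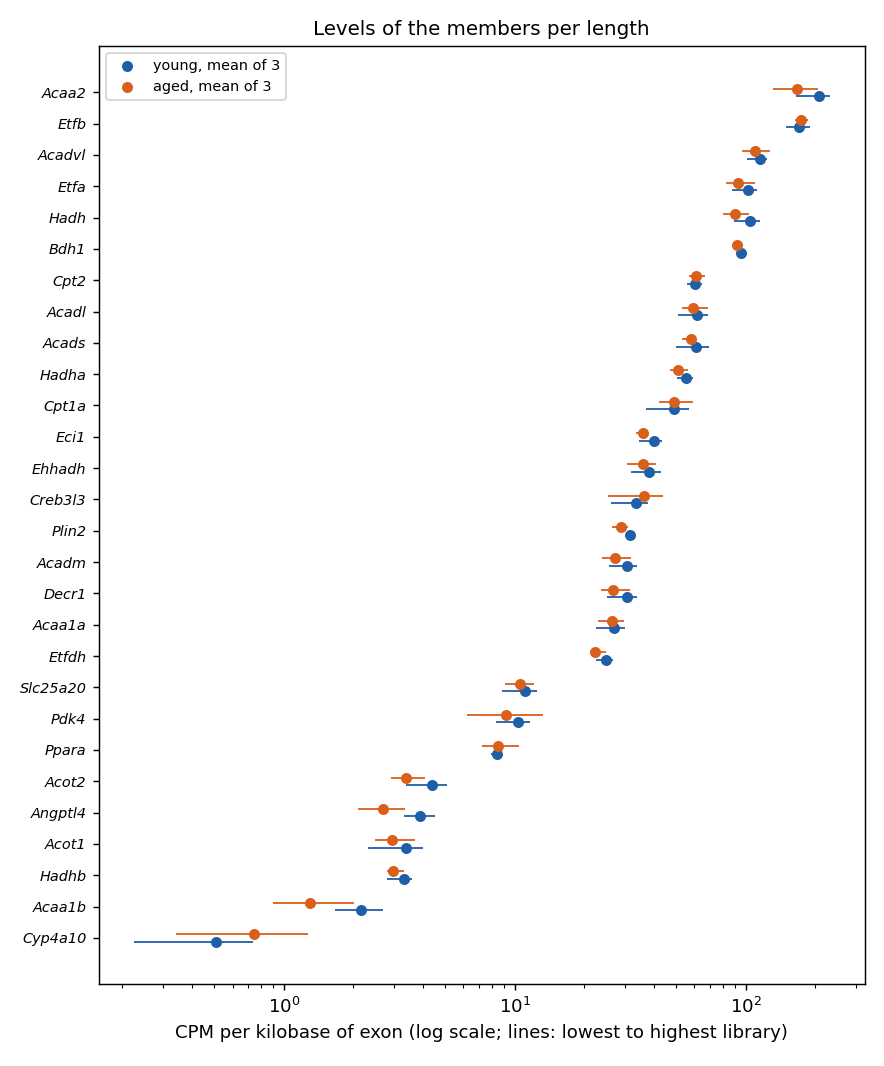
Mean level of each tested member per kilobase of annotated exon in young (blue) and aged (orange) mice, on a log axis, with lines from the lowest to the highest of 3 libraries. The order runs from Acaa2 at 187 to Cyp4a10 at 0.626 CPM per kilobase, and the age groups overlap for every gene.

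In the carnitine shuttle 0 of 3 genes were called. Cpt1a (ENSMUSG00000024900, chromosome 19, 3322334 to 3385733, GRCm38), the outer membrane transferase at which entry is controlled, measured 409, 282 and 435 CPM in young and 323, 344 and 452 CPM in aged mice. The age ranges overlapped, with aged replicate 3 highest and young replicate 2 lowest. The log2 fold change was -0.01 ± 0.18 (SE, adjusted p = 0.995), with an interval from 25.5% lower to 32.5% higher in aged mice. Slc25a20, the carrier that exchanges acylcarnitine for carnitine, measured 53.9 ± 9.90 and 51.3 ± 7.17 CPM (SD, n = 3 each; adjusted p = 0.953). Cpt2, the inner membrane transferase, measured 147, 133 and 154 CPM in young and 136, 139.6 and 159.9 CPM in aged mice (adjusted p = 0.995), and its interval ran from 12.7% lower to 15.1% higher. All 3 genes were lowest in young replicate 2.

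Of the acyl-CoA dehydrogenases, which carry out the first step for chains of decreasing length, Acadvl measured 322, 271 and 332 CPM in young and 284, 260 and 341 CPM in aged mice. The long-chain enzyme gene Acadl measured 137, 102 and 132 CPM in young and 111, 107 and 138 CPM in aged mice. Aged replicate 3 was highest for both genes, while the lowest was aged replicate 2 for Acadvl and young replicate 2 for Acadl. The medium-chain enzyme gene Acadm (127, 99.7 and 133 against 102, 93.8 and 124 CPM) differed by -0.16 ± 0.13 on the log2 scale (SE, adjusted p = 0.825). For the short-chain enzyme gene Acads it was -0.06 ± 0.12 (adjusted p = 0.942). Acadvl shares 42.9% of its exon bases with Dvl2 on the opposite strand, and Dvl2 had between 20.1 and 24.3 CPM. Whether the counting used strand is not known here, so the reads of both genes may not be separated.

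The next steps are carried out by the trifunctional protein and by the enzymes of Hadh and Acaa2. The trifunctional protein has its alpha subunit from Hadha and its beta subunit from Hadhb. Hadha measured 518, 439.7 and 489.7 CPM in young and 428, 411 and 490.1 CPM in aged mice (log2 fold change -0.12 ± 0.09 SE, adjusted p = 0.820). Hadh, a dehydrogenase, measured 573, 442 and 541 CPM against 432, 398 and 512 CPM (-0.21 ± 0.12 SE, adjusted p = 0.703). Acaa2 measured 350.2, 251 and 342 CPM against 246, 198 and 313 CPM, and its log2 fold change of -0.32 ± 0.18 (SE, adjusted p = 0.713) was the lowest of the 16 mitochondrial members from the carnitine shuttle to electron transfer. Its interval ran from 39.9% lower to 7.22% higher. In all 3 genes aged replicate 2 was lowest and young replicate 1 highest, and the age ranges overlapped.

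Hadhb was far below its partner, although both subunits enter one complex. It measured 23.4, 18.4 and 23.6 CPM in young and 18.4, 18.6 and 21.8 CPM in aged mice. For every 100 counts of Hadha there were 4.52, 4.18 and 4.81 of Hadhb in young and 4.30, 4.51 and 4.44 in aged libraries. The coding transcripts of Hadhb share 57.5% of their stretches of 50 bases with other annotated genes, nearly all with the processed pseudogene Gm13910, which itself had between 1.71 and 2.25 CPM. The longest identical run was 682 of 1425 coding bases. The start of that run is shown with some bases before it, because reads inside the run cannot be told apart (GENCODE M21 transcripts, GRCm38, plus strand; Hadhb exons 9 and 10 with the intron left out, chr5:30174881-30176896; Gm13910, chr2:108949529-108949628; the capital, just before the run, marks the only base that differs in these 100).
Hadhb: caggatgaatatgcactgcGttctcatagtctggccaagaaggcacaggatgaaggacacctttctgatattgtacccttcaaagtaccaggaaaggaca
Gm13910: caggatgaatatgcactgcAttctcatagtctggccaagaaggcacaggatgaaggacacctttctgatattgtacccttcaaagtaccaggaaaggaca
Over all transcripts of Hadhb, coding or not, 19.7% of the stretches were shared. The level of Hadhb relative to other genes is uncertain, and the part of shared sequence in it was not tested. The log2 fold change of Hadhb between the ages was -0.15 ± 0.12 (SE, adjusted p = 0.827), near that of Hadha.

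Hadha and Hadhb lie head to head on chromosome 5, and their annotated starts are separated by 85 bases (chr5:30155163-30155247, GRCm38, plus strand). This stretch, from the RefSeq promoter table of GRCm38.p6, is shown because both subunit genes are read outward from it. Its part in the levels of Hadha and Hadhb was not tested.
Hadha to Hadhb: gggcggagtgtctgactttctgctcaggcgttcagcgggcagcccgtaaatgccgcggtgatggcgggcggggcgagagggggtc

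Decr1 and Eci1 encode auxiliary enzymes that let unsaturated fatty acids enter the cycle. Decr1 measured 131, 97.1 and 129 CPM in young and 96.4, 92.1 and 123 CPM in aged mice (log2 fold change -0.20 ± 0.14 SE, adjusted p = 0.811). Eci1 measured 85.1 ± 10.1 and 76.6 ± 5.29 CPM (SD, n = 3 each; adjusted p = 0.778). Both were lowest in aged replicate 2. Electrons from the dehydrogenases pass to the flavoprotein of Etfa and Etfb and then to the ubiquinone oxidoreductase of Etfdh. For Etfa the aged over young log2 value was -0.15 ± 0.13 (SE, adjusted p = 0.839), and for Etfdh it was -0.15 ± 0.09 (SE, adjusted p = 0.750). Etfb, at 199, 173 and 221 CPM in young and 216, 191 and 201 CPM in aged mice, was 1 of only 2 mitochondrial members above 0, beside Cpt2 (0.04 ± 0.10 SE, adjusted p = 0.969). Etfb shares 53.0% of its exon bases with the gene model Gm45233 on its strand, which is not among the genes of the count table, and 5.24% with Mir7051, which is. Over all 16 mitochondrial members the intervals reached no further than 39.9% lower and 32.5% higher.

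Bdh1, which interconverts the ketone bodies acetoacetate and beta-hydroxybutyrate, was the steadiest member. It measured 359.7, 358 and 389.6 CPM in young and 339, 357 and 372 CPM in aged mice, with a coefficient of variation of 4.69% over the 6 libraries. Its log2 fold change was -0.05 ± 0.07 (SE, adjusted p = 0.908), an interval from 13.8% lower to 7.98% higher.

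Among the peroxisomal members, Ehhadh, the bifunctional enzyme, measured 129, 94.8 and 118 CPM in young and 106, 91.1 and 122 CPM in aged mice (adjusted p = 0.917). The thiolase gene Acaa1a measured 118 ± 17.3 and 117 ± 14.8 CPM (SD, n = 3 each; adjusted p = 0.988). Its copy Acaa1b was much lower and differed more. It measured 5.26, 4.18 and 3.26 CPM in young and 3.95, 1.75 and 1.91 CPM in aged mice, where aged replicate 1 lay within the young range. The log2 fold change was -0.74 ± 0.32 (SE, unadjusted p = 0.0482 and adjusted p = 0.537 by edgeR). It ranged from -1.21 without aged replicate 1 to -0.54 without aged replicate 2, and stayed uncalled in every alternative fit.

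Counts of the thiolase copies are uncertain, since 46.2% of the 50-base stretches in the coding transcript of Acaa1b also occur in other genes, mostly Acaa1a. The start of their longest identical run of 327 bases shows how little separates them (exons 8 and 9 of each with the intron left out; Acaa1a on chr9:119348682-119348930, plus strand; Acaa1b on chr9:119149441-119149689, minus strand; the capital marks the differing base).
Acaa1a: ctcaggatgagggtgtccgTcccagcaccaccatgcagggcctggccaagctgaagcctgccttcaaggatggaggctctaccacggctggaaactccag
Acaa1b: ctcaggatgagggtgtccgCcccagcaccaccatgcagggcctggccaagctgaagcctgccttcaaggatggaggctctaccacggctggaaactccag
For every 100 counts of Acaa1a there were 4.26, 4.22 and 2.47 of Acaa1b in young and 3.01, 1.73 and 1.62 in aged libraries. Acaa1b also shares 11.4% of its exon bases with Dlec1 on the opposite strand, which had 15, 19 and 18 counts in young and 5, 6 and 4 in aged libraries, against 80 to 247 counts of Acaa1b. The part of either in the Acaa1b values was not tested.

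The thioesterase genes Acot1 (cytosolic) and Acot2 (mitochondrial) split acyl-CoA into free fatty acid and CoA and are strongly induced by PPAR-alpha in liver. Acot1 measured 15.7, 9.10 and 15.1 CPM in young and 9.76, 10.4 and 14.5 CPM in aged mice (log2 fold change -0.20 ± 0.23 SE, adjusted p = 0.887). Acot2 measured 10.2, 7.44 and 11.2 CPM in young and 6.93, 6.43 and 8.95 CPM in aged mice (-0.37 ± 0.19 SE, adjusted p = 0.647). Young replicate 2 was the lowest of all for Acot1 and lay among the aged values for Acot2. The genes are neighbours on chromosome 12 and share an identical run of 273 coding bases, whose start in exon 3 of each is shown with the differing bases in capitals (plus strand; Acot1 on chr12:84016986-84017085, Acot2 on chr12:83992708-83992807).
Acot1: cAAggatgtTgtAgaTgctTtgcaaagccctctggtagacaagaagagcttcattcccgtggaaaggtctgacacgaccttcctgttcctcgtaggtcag
Acot2: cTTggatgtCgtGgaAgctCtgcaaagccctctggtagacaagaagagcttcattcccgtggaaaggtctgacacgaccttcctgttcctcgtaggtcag
Of the 50-base stretches in their coding transcripts, 32.7% (Acot1) and 27.7% (Acot2) also occur in other genes.

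The omega-hydroxylases of the Cyp4a family, classical PPAR-alpha targets of rodent liver, were nearly absent. Cyp4a14 had 0 counts in all 6 libraries, which allows at most 3 counts, or 0.0507 to 0.0720 CPM per library. Such limits cover counting error only. Cyp4a31 had 1, 0 and 1 counts in young and 5, 1 and 0 in aged libraries and was not tested. Cyp4a10 had 68, 28 and 50 counts in young and 62, 33 and 150 in aged libraries, or 1.55, 0.473 and 1.20 against 1.31, 0.724 and 2.67 CPM. Its log2 fold change of 0.58 ± 0.54 (SE, adjusted p = 0.849) rested on aged replicate 3, without which it was -0.06. With 1 surrogate variable it was 1.22 (adjusted p = 0.0965). Cyp4a10 shares an identical run of 179 coding bases with Cyp4a32 (0.271 to 1.39 CPM). Its start is shown with some bases before it, because reads inside the run cannot be assigned to one copy (exons 7 and 8 with the intron left out, plus strand; Cyp4a10 on chr4:115525338-115525526, Cyp4a32 on chr4:115611058-115611245; the capital, just before the run, marks the differing base).
Cyp4a10: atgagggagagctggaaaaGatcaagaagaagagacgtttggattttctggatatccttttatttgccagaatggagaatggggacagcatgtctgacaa
Cyp4a32: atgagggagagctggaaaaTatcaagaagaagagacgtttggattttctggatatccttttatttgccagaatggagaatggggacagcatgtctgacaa

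Of the regulators 0 of 2 were called. Ppara (ENSMUSG00000022383, chromosome 15, 85734983 to 85802819) measured 32.8, 30.4 and 33.5 CPM in young and 29.5, 27.7 and 40.2 CPM in aged mice. The aged values span the young ones on both sides, and the log2 fold change was 0.01 ± 0.14 (SE, adjusted p = 0.992). Creb3l3, a membrane-bound transcription factor that acts with PPAR-alpha on lipid genes, measured 109.7, 79.1 and 114 CPM against 133, 76.2 and 118 CPM. Its log2 fold change was 0.11 ± 0.22 (SE, adjusted p = 0.945). Both were lowest in aged replicate 2.

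The secreted lipase inhibitor gene Angptl4 came nearest to the threshold. It measured 11.7, 16.0 and 13.8 CPM in young and 9.25, 7.46 and 11.9 CPM in aged mice, so that aged replicate 3 lay just above young replicate 1. The log2 fold change was -0.54 ± 0.18 (SE), which is 31.0% lower with an interval from 48.2 to 8.12% lower (edgeR unadjusted p = 0.0167, adjusted p = 0.316). Over the alternatives it ran from -0.73 without aged replicate 3 (adjusted p = 0.0981, the smallest) to -0.39 without aged replicate 2. Unlike most enzymes, Angptl4 was highest in young replicate 2. Plin2, which coats lipid droplets, was also highest there, at 109.9, 115 and 107 CPM in young and 104, 92.6 and 108 CPM in aged mice (-0.12 ± 0.08 SE, adjusted p = 0.778). Pdk4, the kinase that turns off pyruvate dehydrogenase when fat is burned, spread widely within the aged group, at 28.3, 21.7 and 46.6 CPM, around young values of 41.1, 29.2 and 38.1 CPM. Its log2 fold change was -0.16 ± 0.28 (SE, adjusted p = 0.932) and -0.53 without aged replicate 3.

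RefSeq promoter windows (GRCm38.p6, 250 bases before to 50 after the start) were found for 24 of the 30 members, 26 windows in all. The direct repeat bound by PPAR-alpha with RXR, searched on both strands as AGGTCA, any base, and AGGTCA again, occurred in 0 of the 26 and in 0.0396% of 32851 windows of all genes. The looser form, with AGGNCA for each hexamer, occurred in 0 and 0.381%. At shares this small, 0 of 26 windows does not set the members apart from other genes. Sites outside these windows were not searched. A single AGGTCA on either strand, which each repeat also holds, occurred in 5 windows (19.2%) and in 16.3% of all. Those of Cpt1a, Acadvl and Plin2 are shown as examples that lie outside annotated exons, in the direction of the gene, with AGGTCA or its complement TGACCT in capitals (chr19:3323180-3323239, plus strand; chr11:70015483-70015542, minus strand; chr4:86670245-86670304, minus strand).
Cpt1a: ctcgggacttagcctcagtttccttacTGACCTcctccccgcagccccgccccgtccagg
Acadvl: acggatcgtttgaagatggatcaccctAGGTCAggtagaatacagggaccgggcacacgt
Plin2: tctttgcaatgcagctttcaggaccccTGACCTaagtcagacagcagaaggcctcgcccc
A match is a description of these letters and not a bound site.

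The rest of the pathway was read from the same fit. Of 25 tested other genes of mitochondrial oxidation 0 were called, and the median log2 fold change was -0.09. The most abundant, Acsl5, which activates fatty acids, measured 471 ± 33.3 and 481 ± 37.0 CPM (SD, n = 3 each; adjusted p = 0.969), and the hydratase gene Echs1 164 ± 25.9 and 151 ± 10.6 CPM (adjusted p = 0.877). Of 18 tested peroxisomal genes 0 were called (median -0.12). The transporter gene Abcd3 differed by -0.08 ± 0.11 on the log2 scale (SE, adjusted p = 0.916). Both lists were lowest in aged replicate 2 and next lowest in young replicate 2, as the members were. Their medians against each gene's mean were 0.12, -0.11 and 0.14 (mitochondrial) and 0.13, -0.11 and 0.11 (peroxisomal) in young mice, and -0.04, -0.13 and 0.08 and -0.08, -0.17 and 0.07 in aged mice.

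Ketone body genes had 0 of 7 called and a median of 0.02, with values from -0.89 to 0.70. In 2 of the 7 all aged libraries lay above all young ones (6.3% of all genes), and in 0 below (7.49%). Acat1, a thiolase, measured 283 ± 26.2 and 266 ± 25.7 CPM (SD, n = 3 each; adjusted p = 0.879) and Slc16a1, a carrier of ketone bodies and lactate, 211 ± 13.8 and 213 ± 21.9 CPM (adjusted p = 0.983). Of 21 tested other PPAR targets 0 were called (median -0.06, which was -0.21 when aged replicate 3 was left out and 0.07 when aged replicate 2 was). The most abundant, Txnip and Ucp2, had log2 fold changes of 0.06 and -0.08 (adjusted p = 0.932 and 0.864). At an unadjusted p below 0.05 by edgeR, the oxidation, ketone body and PPAR target lists each had 1 gene lower in aged mice. Acsl3, Eci3 and Mgll were among these genes, with adjusted p of 0.4995, 0.247 and 0.275. The peroxisomal list also had 1 gene higher. Over all genes 5.33% were lower and 3.9% higher at this threshold. None of the genes in these lists was called.

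Nuclear receptors and coregulators had 0 of 19 called and a median of 0.02, with Hnf4a, a receptor of enterocyte identity, at 1598 ± 112 and 1679 ± 98.8 CPM (SD, n = 3 each; adjusted p = 0.891) and Ncor1, a corepressor, with a log2 fold change of 0.02 (adjusted p = 0.978). Ppargc1a, the coactivator of mitochondrial genes, was the only one with an unadjusted p below 0.05 (28.3, 24.3 and 20.8 against 20.4, 17.9 and 19.5 CPM, adjusted p = 0.350). Fatty acid synthesis, the opposing pathway, had 0 of 11 called and a median of 0.11 (Mlxipl -0.09, adjusted p = 0.951; Fasn 0.20, adjusted p = 0.727). The nuclear genes of oxidative phosphorylation had 0 of 20 called and a median of -0.05 (Atp5b -0.02 and Atp5a1 -0.03). Circadian clock genes, which differ with the hour of sampling, had 0 of 17 called and a median of 0.23, with Bhlhe40 at 0.02 and Clock at 0.09. In the libraries the clock list stood at -0.14, 0.15 and -0.18 in young and 0.08, 0.07 and -0.06 in aged mice. The list was above 0 in the 3 libraries where the members were below 0. Its genes differed in both directions with age, 12 above 0 and 5 below, from -0.51 to 0.51. A median over such genes does not measure the hour of sampling. The part of sampling time in the members' values was not tested.

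**Figure D4:**
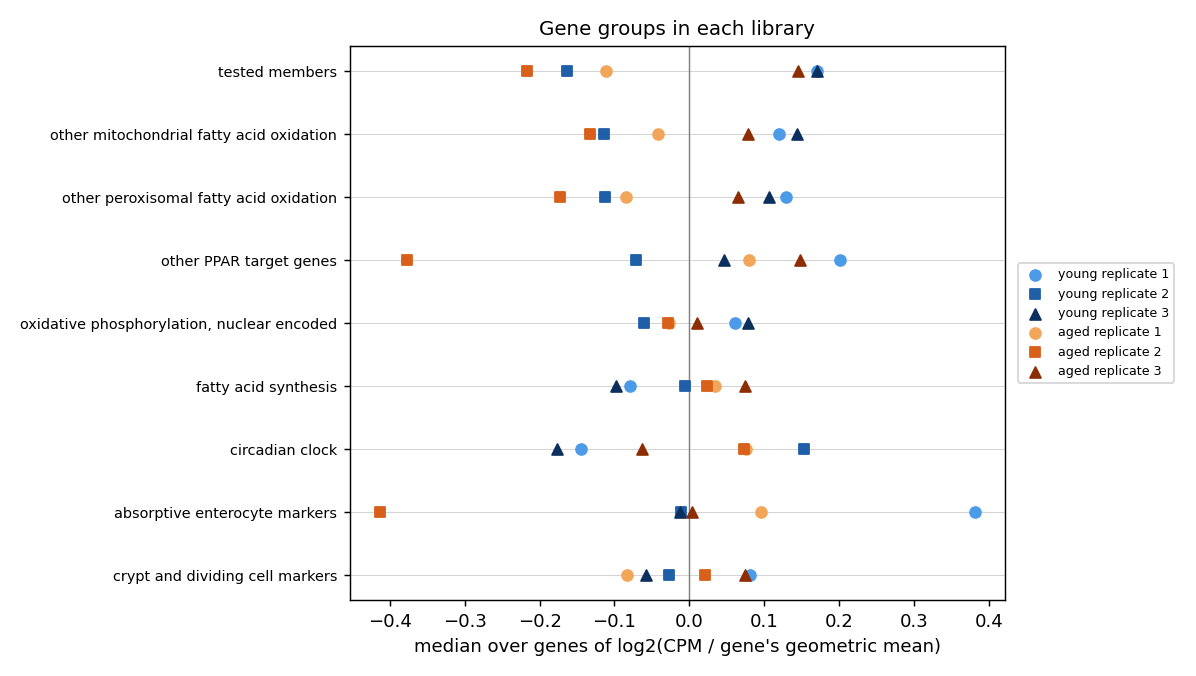
Median position of gene groups in each of the 6 libraries, as log2 of CPM over each gene's geometric mean; blue symbols are young and orange symbols aged mice. The members and the 2 further oxidation lists run in the same order of libraries, from aged replicate 2 up to the young replicates 1 and 3. The clock list is above 0 where these are below, but its median does not measure the hour of sampling.

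Markers of epithelial lineages were set beside these values. In absorptive enterocytes, the villus cells that absorb and export fat, 0 of 15 genes were called, with a median of -0.19. Leaving out young replicate 1 gave a median of 0.01 and leaving out aged replicate 2 gave -0.05. The most abundant, Vil1 and Anpep, stood at 0.01 and 0.18, but 10 of the 15 genes were below 0 (48.2% of all genes). At an unadjusted p below 0.05 by edgeR 3 were lower (5.33% of all genes) and 0 higher (3.9%). In 3 genes all aged libraries lay below all young ones (7.49% of all genes), and in 0 above (6.3%). By library this list stood at 0.38, -0.01 and -0.01 in young and 0.10, -0.41 and 0.00 in aged mice. Aged replicate 2 was therefore lowest in the members and in these markers. Young replicate 2 was low in the members at a marker level near 0, and young replicate 3 was high in the members at the same marker level. Crypt and dividing cell markers had 0 of 10 called (median 0.03, Olfm4 -0.11, Mki67 0.17) and tuft cell markers 0 of 5 (median -0.30, Trpm5 -0.30, Avil -0.02). Of the 5 tuft markers, 2 were lower at an unadjusted p below 0.05 by edgeR (5.33% of all genes) and 0 higher (3.9%). In 2 of them all aged libraries lay below all young ones (7.49% of all genes), and in 1 above (6.3%). Paneth (1 of 6, Defa17), goblet (1 of 7, Tff3) and enteroendocrine lists (2 of 7, Gip and Sst) had genes that fell by edgeR, with adjusted p between 0.0285 and 0.0498. The summed Paneth markers lay between 8427 and 15560 CPM in young and 6361 and 6830 CPM in aged libraries. The goblet sum lay between 17250 and 26513 CPM in young and 14625 and 16158 CPM in aged libraries. Neither of these sums overlapped between the ages. The enteroendocrine sum did overlap, at 2118 to 2782 CPM in young and 2398 to 2677 CPM in aged libraries. Gene by gene, all aged libraries lay below all young ones in 4 of 6 Paneth markers (7.49% of all genes). The same held for 3 of 7 goblet markers, and 3 of 7 in the enteroendocrine list. The part of cell composition in the members' values was not tested.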

How the data were processed

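The authors deposited raw counts per gene, whole numbers not normalized, with 1 column for each of the 6 libraries. Per the submitters' processing notes, GRCm38 and tools including STAR, HISAT2 2.1.0 and featureCounts 1.6.4 were used. The sources used here give neither their roles nor the annotation release or strand setting. Columns were matched to samples by the library identifier in the titles, and groups come from the age label. Genes were kept by filterByExpr of edgeR 4.0.16 (minimum count 10), which left 14923, scaled with TMM and tested with the robust quasi-likelihood test with age as the only term (R 4.3.3). The standard error is the log2 fold change over the root of F. Calls use a Benjamini-Hochberg adjusted p below 0.05 over all genes tested, and intervals are 95%, per gene. The procedure was tested on simulated data.

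Exon lengths, overlaps and positions are from GENCODE M21, which holds 45143 of the 46078 gene IDs. Precision varied with depth: 3 counts were 0.0507 to 0.0720 CPM. The members and lists were chosen with earlier results of these data known. Every member is named; of other lists up to 4 called genes or, with none, the 2 most abundant tested genes are named. Alternatives were DESeq2 1.42.0, limma-voom (limma 3.58.1), 2 other scalings, 2 other filters, non-robust estimation, leaving out each library and a fit with 1 surrogate variable from sva 3.50.0. No genome sequence was used. Some genes of these lists are not reported here.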

Additional observations from a re-analysis of the deposited data

How the results depend on the processing

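No member was called in any of the 14 alternatives, over 392 member values. Of these, 38 changed sign, all without a call. Over all genes, 210 were called (93 higher, 117 lower). DESeq2 called 491 (205 and 286), the fit with no filter beyond 1 count 413 (168 and 245), and the filter of 1 CPM in 3 libraries 137 in all with 67 lower. Leaving out 1 library gave between 67 (without aged replicate 1) and 270 genes (without aged replicate 3), with 35 to 135 higher and 30 to 135 lower; without aged replicate 2 the total was 72. The members' median log2 fold change ran from -0.22 to -0.06 without 1 library and was 0.03 with 1 surrogate variable. Pdk4 changed sign with that variable (0.08) and without aged replicate 2 (0.05). The clock list's median of 0.23 was -0.01 without young replicate 3. No paired analysis was possible because the labels give no replicate numbers that young and aged mice share. With 3 mice a group, a member that was not called may still differ by an amount within its interval.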
